A study of Homo sapiens with 4 samples.

Results

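The genes described here are long non-coding RNA genes that carry small nucleolar RNAs in their introns. They were taken by symbol from the deposited gene table: every symbol made of SNHG (small nucleolar RNA host gene) and digits, with GAS5, ZFAS1, EPB41L4A-AS1 and DANCR added. This gave 32 genes of 60048 in the table, all annotated as lncRNA, on 15 chromosomes, with spans from 507 to 227024 bases. The rule itself uses symbols only.

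A snoRNA host gene is transcribed by RNA polymerase II as a long precursor, and its spliced-out introns are trimmed into the mature small RNAs. Box C/D snoRNAs guide 2′-O-methylation of ribosomal RNA, box H/ACA snoRNAs guide pseudouridylation, and scaRNAs guide the same modifications on spliceosomal RNAs in Cajal bodies. The spliced exons of many of these genes encode no stable protein, and several of the transcripts, GAS5 and SNHG1 among them, are known to be degraded by nonsense-mediated decay. Many hosts also share a 5′ terminal oligopyrimidine (TOP) start, a C followed by a run of pyrimidines, with the genes of ribosomal proteins. Because nascent RNA is captured soon after it is made, its signal is taken to report on transcription more directly than steady-state RNA would. Decay and processing during the labelling were not measured here.

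The libraries were made from HCT116, an established human colorectal carcinoma cell line, of genotype RAD21-mAC, in which the cohesin subunit RAD21 carries a tag that allows its degradation upon auxin. The control group received DMSO and the auxin group 0.5 mM indole-3-acetic acid for 3 h, with 2 libraries in each group. All cells, control cells included, carried the tagged RAD21 and were exposed to 0.5 mM 5-ethynyl uridine (EU) for 20 min. Their RNA was depleted of rRNA and mixed with RNA of labelled fly cells, and the EU-containing molecules were captured and sequenced (EU-seq). The labels name a single engineered line, and they do not say whether replicates came from separate cultures, so the p-values below measure only the spread between these libraries, which may be technical.

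Values are a scaled nascent signal per gene, summed over the whole span with introns, after bringing the 4 libraries to a common scale. Deposited totals lay between 61135243.62 and 93113007.35, and how many reads stand behind each of them cannot be said from the table. None of 9 epithelial marker genes was at 0 in all libraries, with summed scaled signal from 58327.5 to 65400.3 per library, although CDX1 averaged only 11.3. The summed signal of 3 leukocyte markers lay between 66.9 and 79.7, that of 2 endothelial markers between 534 and 695.1, and that of 3 fibroblast markers between 581.5 and 1014. Endothelial and fibroblast sums were higher in both auxin libraries than in both control libraries. The labels name a single cell line and no other cell type. In bulk RNA, the share of cells with such a signal and the RNA per cell cannot be told apart. The part of these markers in the results on host genes was not tested.

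The library kit keeps strand, but the table does not appear to separate strands: of 4365 genes with a mean of at least 50 that lie wholly inside a gene of the opposite strand, 4365 had no more signal than that gene in all 4 libraries. Overlapping genes therefore share signal. Of the 32 host genes, 21 overlap a gene larger than a small RNA gene, and 11 overlap none.

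The transcription starts of the hosts are shown first, since a TOP start is known from many snoRNA host genes. RefSeq promoter sequences (GRCh38.p14) were matched by symbol for 28 of the 32 genes, and in 12 of these the RefSeq start lay within 10 bases of the start in the deposited table. Each line below runs 5′ to 3′ from 20 bases before the RefSeq start through the first 30 transcribed bases. Capitals mark the unbroken pyrimidine run of genes that begin with C, and a run of at least 5 was counted as a TOP-like start. The first 5 lines meet that count, SNHG7 and SNHG1 begin with C but have shorter runs, and the last 2 are shown as hosts with another start.

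ZFAS1, chr20:49278622-49278671, plus strand: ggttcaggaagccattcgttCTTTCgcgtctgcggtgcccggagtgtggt
SNHG5, chr6:85678704-85678753, minus strand: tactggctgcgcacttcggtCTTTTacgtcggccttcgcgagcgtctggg
SNHG32, chr6:31834896-31834945, plus strand: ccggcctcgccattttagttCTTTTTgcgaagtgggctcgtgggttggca
SNHG19, chr16:2155329-2155378, minus strand: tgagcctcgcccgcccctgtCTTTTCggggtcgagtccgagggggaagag
SNHG18, chr5:9546180-9546229, plus strand: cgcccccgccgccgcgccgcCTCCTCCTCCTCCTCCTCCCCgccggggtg
SNHG7, chr9:136728155-136728204, minus strand: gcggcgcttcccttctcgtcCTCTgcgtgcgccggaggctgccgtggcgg
SNHG1, chr11:62855856-62855905, minus strand: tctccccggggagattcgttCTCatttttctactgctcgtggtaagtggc
SNHG16, chr17:76557744-76557793, plus strand: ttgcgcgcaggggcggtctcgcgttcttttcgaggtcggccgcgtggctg
EPB41L4A-AS1, chr5:112160506-112160555, plus strand: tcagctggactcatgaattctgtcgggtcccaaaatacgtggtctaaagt

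A TOP-like start was found in 7 of the 28 matched hosts (25%), which adds SNHG12 and SNHG4 to the 5 shown, against 4.04% of the 27305 promoters in the RefSeq table. Among the 12 hosts whose starts match, it was 5 (41.7%). The trait is not particular to these lncRNA genes: of 26 protein-coding snoRNA host genes matched in the same way, 14 (53.8%) had such a start. ZFAS1, SNHG5, SNHG32 and SNHG19 all begin with CTTT after a T, and their runs of 5 or 6 pyrimidines end at a purine. SNHG18 has the longest run, 21 bases of C and T. Other motifs searched on both strands of the 300-base promoter windows (250 bases before the start and 50 from it) were near their share over all promoters. CACGTG, the E-box bound by MYC among others, was in 2 of 28 hosts (7.14%, against 7.43% of all promoters), CCGGAAGT, an ETS-type site, in 1 (3.57% against 4.44%), and TATAAA in 4 (14.3% against 12%). These matches describe letters in the window and not bound sites.

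Of the 32 hosts, 31 passed the filter on low values and were tested; SNHG18, which carries SNORD123 (also listed at 0), was listed at 0 in all 4 libraries. Per kb of span, the scaled signal of the 31 averaged from 0.647 to 3380, a range of 5220-fold, with a median of 865. For comparison, the median was 15.6 per kb over the 11715 lncRNA genes tested, and 28 of the 31 hosts lay above it. All levels in the next paragraphs are scaled signal per kb, and they rest on whole spans, so a host with long introns or an unused start is diluted.

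The host with the most signal per kb was SNHG19, which carries SNORD60, with 3110 and 3590 in control and 3130 and 3690 in auxin. SNHG25, the host of SNORD104 and SNORA50C, followed with 2660 and 3210 in control and 2810 and 3430 in auxin. Their spans are short, 562 and 507 bases, and whether reads that only partly cover such a span add to it is not given in the sources used here. Nested snoRNA genes share this signal. Not divided by span, SNORD60 had a mean of 691.3 against 1899.1 for SNHG19. SNORD104 and SNORA50C had 660.7 and 474.8 against 1534.9 for SNHG25. Next came SNHG3, the host of SNORA73A and SNORA73B, with 2430 and 2770 in control and 2530 and 2940 in auxin. The ranges of SNHG19 and SNHG25, and those of SNHG25 and SNHG3, overlapped across libraries, but SNHG19 was above SNHG25 and SNHG25 above SNHG3 within each of the 4 libraries, and replicate 2 was the higher one in both groups for all of them.

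SNHG1, which carries SNORD22, SNORD25 to SNORD28 and SNORD30, had a mean of 2000, and its highest library lay below the lowest of SNHG3. From SNHG32 (1800) down to SNHG8 (534), the range of each host overlapped that of the next higher one, among them SNHG12 (1520), SNHG7 (1490), ZFAS1 (1120), GAS5 (1030), EPB41L4A-AS1 (865) and DANCR (744). In all, 22 of 30 neighbouring pairs in the order had ranges that overlapped across libraries. A gap separated SNHG8 from SNHG21 (285), SNHG11 (268), SNHG30 (251) and SNHG5 (247), and further gaps set apart SNHG10 (199) and SNHG22 (92.3). The lowest were SNHG14 (41.1), SNHG28 (15), SNHG31 (3.99) and SNHG27 (0.647).

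**Figure D1:**
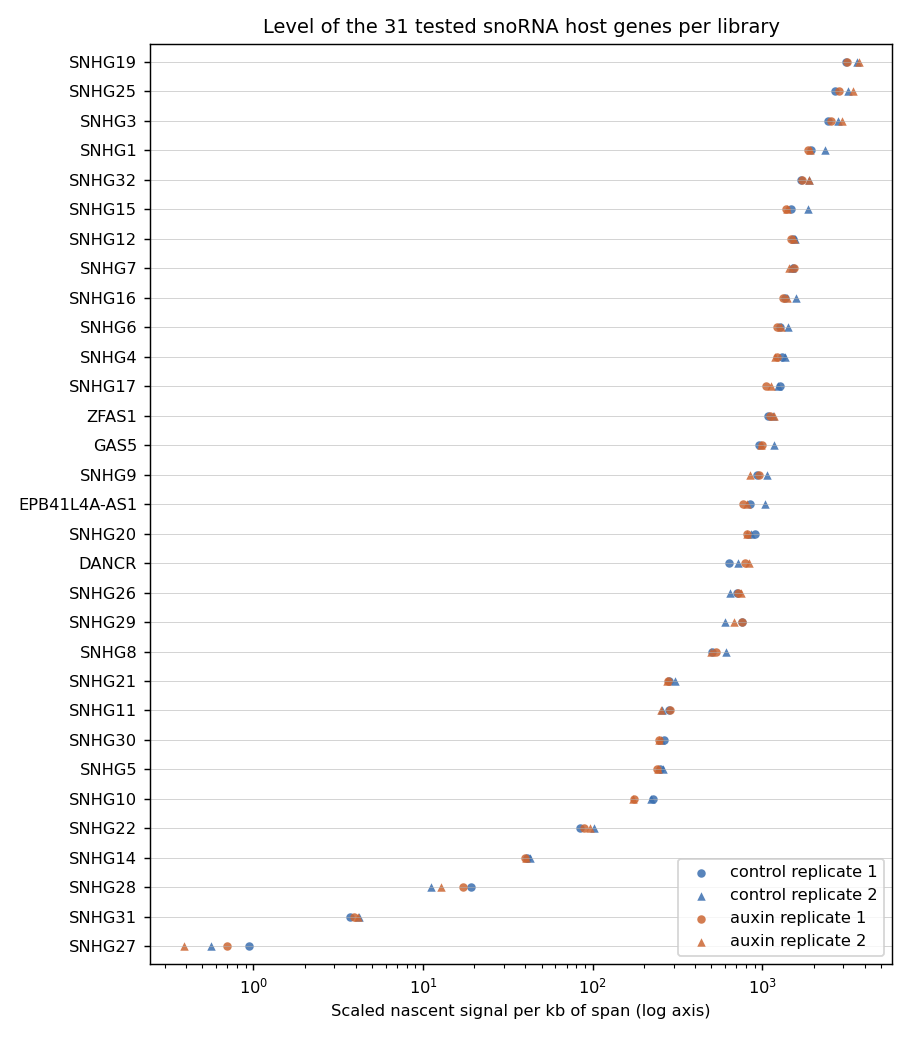
Scaled nascent signal per kb of gene span (log axis) for the 31 tested snoRNA host genes, 1 point per library, blue for control and orange for auxin, circles for replicate 1 and triangles for replicate 2. The 4 libraries of a gene lie close together while genes range from 0.647 (SNHG27) to 3380 (SNHG19) on average.

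The comparison of auxin with control asked whether the nascent signal of these genes differed after auxin treatment of RAD21-mAC cells. No cells without the tag were among the libraries, and RAD21 protein was not measured in them. An effect of auxin itself therefore cannot be told apart from one of RAD21 loss. The log2 ratio given throughout is the fitted log2 fold change of auxin over control. No host passed the test: 0 of 31 had a limma adjusted p under 0.05, where the adjustment is over all 39464 genes tested, of which 0.732% passed (0.332% higher and 0.4% lower). At an unadjusted p under 0.05 there was 1 host, SNHG10 (3.23% of 31), against 10.2% of all genes. The adjusted p-values of the hosts ran from 0.411 to 0.998. Apart from the barely detected SNHG27, the difference in mean signal ran from -22.2% in SNHG10 to 20.0% in DANCR. The 95% interval of the log2 ratio stayed within a 2-fold change in either direction for 30 of 31 hosts, SNHG27 being the exception, and within 1.5-fold for 26. These intervals reflect only the spread between these libraries, which may be technical. They also hold only on the common scale, which takes out any change shared by most genes.

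The differences leaned slightly to lower values. With auxin, 20 hosts had a negative and 11 a positive log2 ratio, with a median of -0.080, where 48.7% of all genes tested were negative (median 0.0089) and the median over tested lncRNA genes was 0.021. Both auxin libraries lay below both control libraries in 11 hosts (35.5%), against 19.6% of all genes, and above them in 2 (6.45%), against 18.6%. Taken in either direction, groups did not overlap in 41.9% of hosts and in 38.2% of all genes. The median rested partly on 1 library: without control replicate 2 it was -0.024. Control replicate 2 was above control replicate 1 in 21 of the 31 hosts. The median absolute difference between the control replicates was 0.17 on the log2 scale, larger than the median absolute difference between auxin and control, 0.091, and the control replicates differed by more than the fitted change in 22 hosts. Between the auxin replicates it was 0.083.

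**Figure D2:**
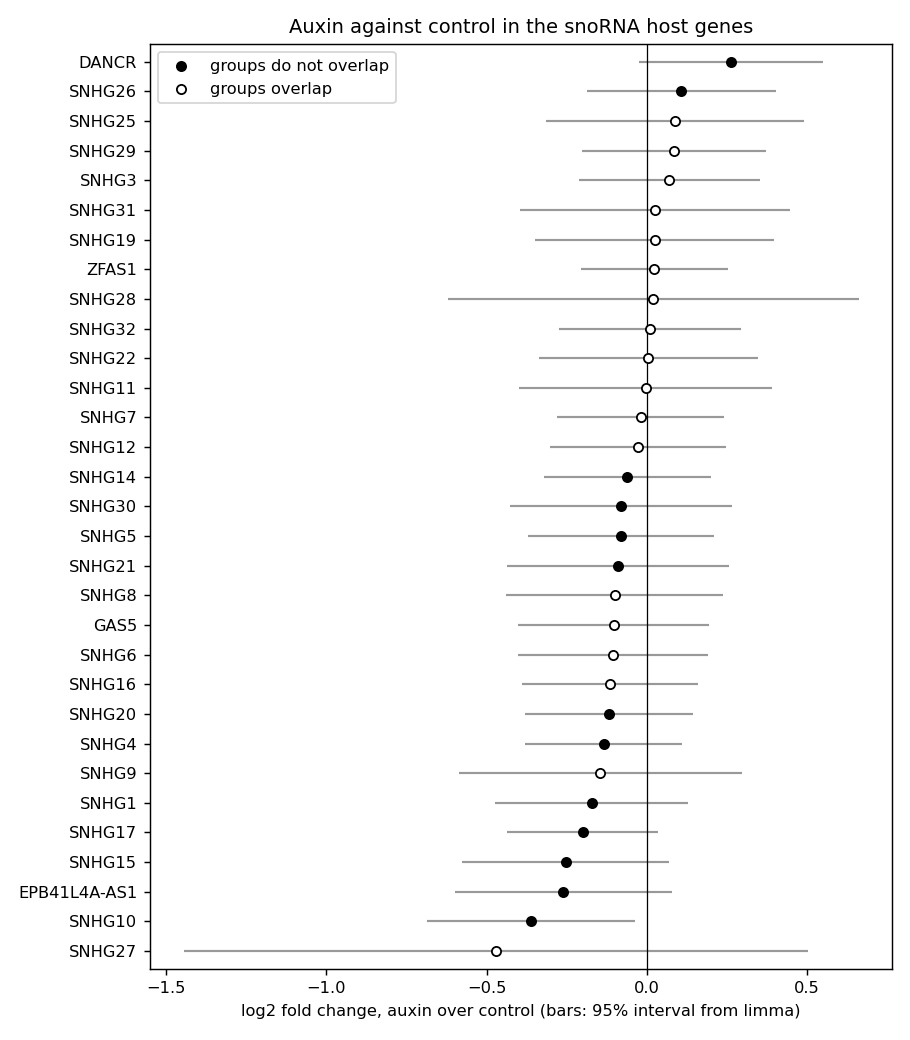
Log2 ratio of auxin over control for the 31 tested snoRNA host genes, with 95% intervals from limma as bars; filled points mark the 13 hosts whose 2 groups do not overlap and open points the 18 whose groups do. Points run from -0.47 (SNHG27) to 0.26 (DANCR), and all intervals but that of SNHG10 include 0.

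The hosts are described below by the kind of small RNA they carry, as the snoRNA and scaRNA genes nested in their spans show. By these names 12 hosts carry only box C/D snoRNAs, 12 only box H/ACA snoRNAs, 2 carry both and 4 carry scaRNAs. GAS5 and SNHG28 hold no nested gene with such a name in the table; the snoRNAs of GAS5 were not analysed here. Among tested hosts the log2 ratio was negative in 6 of 11 for box C/D (median -0.061), in 9 of 12 for box H/ACA (median -0.12) and in 3 of 4 for scaRNA hosts (median -0.10). These medians are descriptions, and the difference between the classes was not tested.

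Among the scaRNA hosts, SNHG10 (ENSG00000247092, GRCh38 chromosome 14, 95521958 to 95534618, minus strand), host of SCARNA13, had a scaled signal of 2871 and 2785 in control and of 2226 and 2175 in auxin. Both auxin libraries were lower, and the gap between the groups was wider than either replicate pair. The means were 2828 ± 61.4 and 2200.4 ± 35.7 (SD, n = 2 each), a log2 ratio of -0.36 (SE 0.15, 95% interval -0.69 to -0.037, limma adjusted p = 0.411, unadjusted p = 0.0323). SNHG10 overlaps no other gene but SCARNA13, and it starts 432 bases from GLRX5, a glutaredoxin gene of iron-sulfur cluster assembly transcribed the other way. GLRX5 had 1643 and 1810 in control and 1628 and 1661 in auxin (log2 ratio -0.069, limma adjusted p = 0.967).

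SCARNA13 itself, nested in SNHG10, stood at 330.6 and 383.8 in control and 362.3 and 304.3 in auxin, and its groups overlapped (log2 ratio -0.10). SNHG20, host of SCARNA16 on chromosome 17 (77088666 to 77099506, plus strand), had 9778 and 9332 in control and 8804 and 8807 in auxin. Its groups did not overlap, with a log2 ratio of -0.12 (SE 0.12, limma adjusted p = 0.865). SNHG20 lies almost entirely (99.2%) within SEC14L1, a gene of the same strand with a log2 ratio of 0.19. SNHG21 and SNHG22, hosts of SCARNA15 and SCARNA17, had log2 ratios of -0.091 and 0.0044. About 76.3% of SNHG22 lies within the much longer MYO5B, a myosin motor gene on the other strand.

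Of the box H/ACA hosts, DANCR (ENSG00000226950, chromosome 4, 52712454 to 52721683, plus strand), a lncRNA named for antagonising differentiation, had 5899 and 6602 in control and 7280 and 7699 in auxin. It was the host with the highest log2 ratio, and its auxin libraries lay above both control libraries by slightly less than the controls lay apart. The means were 6250.3 ± 497 and 7489.6 ± 296 (SD, n = 2 each), a log2 ratio of 0.26 (SE 0.13, 95% interval -0.024 to 0.55, limma adjusted p = 0.543). Its span is shared with AC104066.4 on the other strand, which covers 97.2% of it and had nearly the same values (5929, 6652, 7283 and 7795.5), so these rows report the same signal. DANCR also lies inside LINC01618, whose log2 ratio was 0.10.

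Nested in DANCR, SNORA26 had a log2 ratio of 0.205 and the miRNA gene MIR4449 one of 0.35 (limma adjusted p = 0.889 and 0.736), and in both the auxin libraries lay above both controls. The mature miRNA of the latter is shown with that of MIR6516, nested in SNHG20, because the table lists no other miRNA gene inside a host. Sequences are from RefSeq, 5′ to 3′, with the seed (bases 2 to 8) in capitals, and the 3 mature forms share no seed.
hsa-miR-4449: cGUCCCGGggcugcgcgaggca
hsa-miR-6516-5p: uUUGCAGUaacaggugugagca
hsa-miR-6516-3p: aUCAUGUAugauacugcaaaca

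SNHG17 (chromosome 20, 38419638 to 38435375, minus strand), which holds 5 SNORA71 copies, had 19769 and 19443 in control and 16493 and 17650.5 in auxin. Both auxin libraries were lower by more than the spread of either pair (log2 ratio -0.20, SE 0.11, 95% interval -0.44 to 0.035, limma adjusted p = 0.594). The 5 SNORA71 genes had log2 ratios between -0.26 and -0.13. As these copies resemble each other, how reads were divided among them is uncertain. Its neighbour SNHG11, which holds a further copy, SNORA71E, was level at 1090 and 976.3 in control and 1098 and 964.6 in auxin.

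SNHG15, host of SNORA9 (chromosome 7, 44983038 to 44986961, minus strand), had 5814 and 7303 in control and 5432 and 5501 in auxin. The auxin libraries were below both controls, but the controls themselves were further apart than the lower control was from auxin (log2 ratio -0.25, SE 0.15, limma adjusted p = 0.643). EPB41L4A-AS1, host of SNORA13 (chromosome 5, 112160526 to 112164818, plus strand), showed the same layout with 3636 and 4477 in control against 3280.5 and 3460 in auxin (log2 ratio -0.26, SE 0.15, limma adjusted p = 0.656). Without control replicate 2 the log2 ratio was -0.089 for SNHG15 and -0.11 for EPB41L4A-AS1. SNORA13 had 261.1 and 248.7 in control and 219.5 and 171.8 in auxin. About 51.2% of EPB41L4A-AS1 overlaps EPB41L4A, a membrane-cytoskeleton gene, which had a log2 ratio of -0.0995.

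SNHG4, host of SNORA74A and SNORA74D (chromosome 5, 139274131 to 139284899, plus strand), had 13982 and 14524 in control and 13176 and 12780.2 in auxin, with groups that did not overlap (log2 ratio -0.14, SE 0.11, limma adjusted p = 0.808). It lies wholly within MATR3, which encodes the nuclear matrix protein matrin 3 and had a log2 ratio of -0.22 (limma adjusted p = 0.499). SNHG3 had 11956 and 13602 in control and 12417 and 14425 in auxin. In both groups replicate 2 was higher, and the groups overlapped (log2 ratio 0.070, SE 0.13). SNHG3 lies wholly within RCC1, which encodes the nucleotide exchange factor of Ran and had a log2 ratio of -0.097.

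The other H/ACA hosts were SNHG7, SNHG8, SNHG9, SNHG11, SNHG27 and SNHG31. SNHG27, which carries a SNORA70 copy, was close to the detection filter with 60.2 and 35.8 in control and 44.6 and 24.7 in auxin. Its replicates differed by more than its groups, and its interval was the widest of the family (log2 ratio -0.47, SE 0.44, 95% interval -1.445 to 0.50), and without auxin replicate 2 the log2 ratio was -0.058. Its nested SNORA70 copy was listed at 0 in all libraries. Log2 ratios of the others ran from -0.145 in SNHG9 to 0.026 in SNHG31, and in each the groups overlapped.

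Among the box C/D hosts, SNHG1 (ENSG00000255717, chromosome 11, 62851988 to 62855881, minus strand), one of the earliest known non-coding snoRNA hosts, had 7467 and 9079 in control and 7238 and 7383 in auxin. The auxin libraries sat just below the lower control (log2 ratio -0.17, SE 0.14, limma adjusted p = 0.796), and without control replicate 2 the log2 ratio was -0.031. It starts 263 bases from SLC3A2, the heavy chain of amino acid transporters, which is transcribed the other way. SLC3A2 had 18210.4 and 18303 in control and 14754 and 15814 in auxin, without overlap (log2 ratio -0.26, unadjusted p = 0.0377, limma adjusted p = 0.434).

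ZFAS1 (ENSG00000177410, chromosome 20, 49278642 to 49299600, plus strand), the host of the SNORD12 genes, was among the steadiest, with 22719 and 24042 in control and 22988.5 and 24504 in auxin. Its log2 ratio was 0.022 (SE 0.10, 95% interval -0.21 to 0.25, limma adjusted p = 0.988). Its divergent partner ZNFX1, an RNA helicase gene, had 9409 and 9078 in control and 10272 and 10868 in auxin (log2 ratio 0.19, limma adjusted p = 0.677). GAS5 (ENSG00000234741, chromosome 1, 173858559 to 173867045, minus strand), known for accumulating in growth-arrested cells, had 8129 and 9944 in control and 8444 and 8288.5 in auxin. Both auxin libraries lay between the controls (log2 ratio -0.10, SE 0.13, 95% interval -0.40 to 0.19, limma adjusted p = 0.914). GAS5-AS1, on the other strand and covering 17.3% of GAS5, had a log2 ratio of -0.125.

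SNHG16, host of SNORD1A to SNORD1C, had 10332 and 11932 in control and 9959 and 10548 in auxin, with overlapping groups (log2 ratio -0.12, limma adjusted p = 0.878). SNHG6, host of SNORD87, had 5531 and 6235.5 in control and 5309.8 and 5608 in auxin, also overlapping (log2 ratio -0.11, limma adjusted p = 0.910). Without control replicate 2 the log2 ratio was -0.012 for SNHG16 and -0.019 for SNHG6. SNHG26, host of SNORD93, was the other host besides DANCR whose auxin libraries both lay above control, with 5052 and 4625 in control and 5108 and 5309 in auxin. The margin was small (log2 ratio 0.11, SE 0.13, limma adjusted p = 0.907; 0.044 without control replicate 2).

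SNHG32, host of SNORD48 and SNORD52, was close to level, with 8167 and 9175 in control and 8295 and 9169 in auxin (log2 ratio 0.011, SE 0.13). About 99% of SNHG32 lies within AL671762.1, a lncRNA gene of the same strand (log2 ratio 0.065), so these rows share signal. SNHG19 had 1747 and 2017 in control and 1759 and 2073 in auxin (log2 ratio 0.024), and SNHG25, which holds both classes, had 1348 and 1628 in control and 1426 and 1737 in auxin (log2 ratio 0.087). In these hosts the replicates differed more than the groups. The remaining tested C/D hosts, SNHG5, SNHG14, SNHG29 and SNHG30, had log2 ratios between -0.081 and 0.084, and of these only SNHG29 had overlapping groups. LRRC75A, on the other strand, overlaps 92.5% of SNHG29 and had a log2 ratio of 0.10. SNHG12, which also holds both classes, was at -0.028, and SNHG28, which lies wholly inside the protein-coding AL590560.2, at 0.020.

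SNHG14 is the exception in build: its span of 227024 bases runs antisense to UBE3A and holds 36 genes of the SNORD115 cluster, which is known as brain-specific. Of these, 35 were listed at 0 in all libraries, and the other, SNORD115-35, was above 0 in 1 library. The SNHG14 row had 9339 and 9719 in control and 9102 and 9157 in auxin. UBE3A, a ubiquitin ligase gene, overlaps 38.1% of it and had 11716 and 12009 in control and 11601 and 11695 in auxin. Per kb, UBE3A had 112 and SNHG14 41.1. As strands are not separated, the SNHG14 value cannot be told apart from UBE3A signal, and it does not show that SNHG14 itself was transcribed. How much of it lay outside the shared stretch was not tested. SNORD115 copies are near-identical, and a 0 in them may also reflect how reads with several matches were treated, which is not given in the sources used here.

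**Figure D3:**
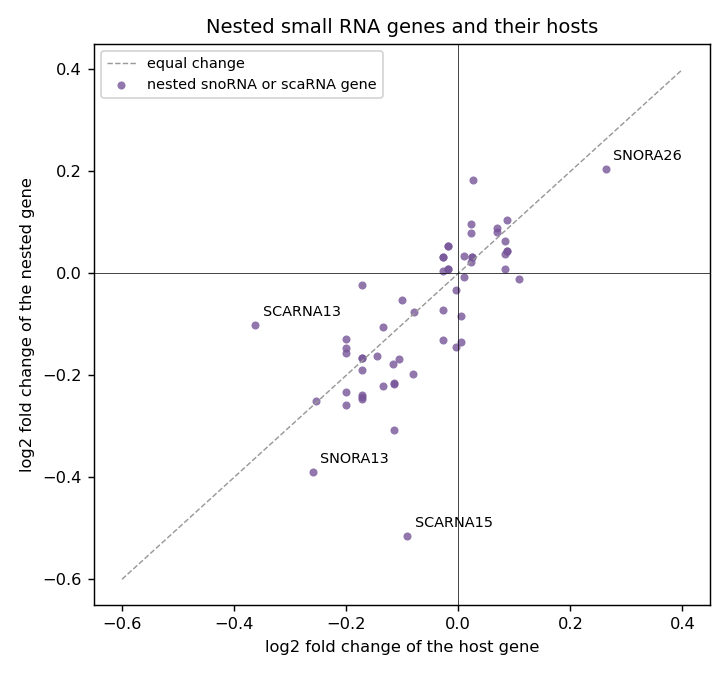
Log2 ratio of each tested snoRNA or scaRNA gene against that of the host gene whose span holds it, with the dashed line marking equal change. Nested rows share signal with the host; SCARNA13 (-0.10) lies above its host SNHG10 (-0.36), and SCARNA15 (-0.515), with very low signal, lies below SNHG21 (-0.091).

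Across the family, 98 snoRNA and scaRNA genes lay inside 31 of the 32 hosts, of which 16 hosts held a single one. Outside SNORD115 there were 62, and 3 of these were listed at 0 in all libraries. Of 58 tested, 0 had a limma adjusted p under 0.05, against 0.732% of all genes, and 0 an unadjusted p under 0.05, against 10.2%. In 5 cases a nested row repeated the values of another one in the same host, such as the pair of SNORA16A annotations in SNHG12. Counted once, the 53 distinct rows had 35 lower and 18 higher values, where 48.7% of all genes were lower, and a median log2 ratio of -0.10. This count adds nothing independent to that of the hosts, because nested rows share signal with their host. Several also lie in 1 host: the 7 rows in SNHG1 and the 5 in SNHG17 were all lower, as were these hosts. Per kb, 55 of the 58 had more signal than the host around them, for example SNORD25 at 11000 against 2000 for SNHG1, SNORD48 at 10200 against 1800 for SNHG32, and SCARNA17 at 2840 against 92.3 for SNHG22. The exceptions were SNORA74A (1210 against 1260 for SNHG4), SNORD1B (1050 against 1410 for SNHG16) and SCARNA15 (85.2 against 285 for SNHG21). Whether a read that only partly covers so short a row adds to it is not given in the sources used here.

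A protein-coding gene on the other strand started within 1 kb of the host in 8 cases, at distances from 125 to 577 bases. In 7 of them both genes were tested, and 4 pairs had log2 ratios of the same sign. No partner had a limma adjusted p under 0.05. BARD1, which encodes the partner of BRCA1, stood out next to SNHG31, with 3708 and 5113.5 in control and 2186 and 3099 in auxin (log2 ratio -0.74, SE 0.205, unadjusted p = 0.00453, limma adjusted p = 0.176). SNHG31 itself had 571.4 and 642.6 in control and 597.7 and 636.7 in auxin. This row is shared with RPL10P6, a processed pseudogene of 318 bases inside it, which had a mean of 274.8 against 612.1 for SNHG31. ABCA12, on the other strand, overlaps 20.9% of SNHG31. The other partners were RPS2 beside SNHG9 (0.00265), TRAF7 beside SNHG19 (-0.20) and ACAA2 beside SNHG22 (0.23), each given as a log2 ratio; SEMA5A, beside the silent SNHG18, had a scaled signal from 142.6 to 182.1.

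Hosts with a TOP-like start and the others can be set side by side, since the sequence was read independently of the signal. The 6 tested hosts with such a start had log2 ratios from -0.14 (SNHG4) to 0.024 (SNHG19), with a median of -0.0086, 3 of them negative. The 21 tested hosts with another start ranged from -0.47 to 0.26, with a median of -0.080, 14 of them negative. These classes rest on RefSeq starts, which lay within 10 bases of the deposited start in only 12 of the 28 matched hosts. Offsets were -2000 bases in GAS5, -369705 in SNHG14 and 37251 in SNHG27, all classed as another start. In SNHG12, classed as TOP-like, the offset was 1113, so the class of such hosts is uncertain. The difference between these groups of genes was not tested.

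Related genes of the snoRNA pathway were taken from lists. None of their genes had a limma adjusted p under 0.05. Of 37 protein-coding genes that host snoRNAs, most of them ribosomal protein genes, 32 were lower and 5 higher with auxin, with a median log2 ratio of -0.053, and 2 had an unadjusted p under 0.05, against 48.7% lower and 10.2% under that p among all genes tested. This median turned to 0.046 without control replicate 2, and leaving out control replicate 1 gave -0.15. The gene with the smallest p was DKC1, the pseudouridine synthase of H/ACA particles and itself a host.

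The genes for snoRNP core proteins, which bind the finished snoRNAs, were lower with auxin in 8 of 8 cases, with a median of -0.29, and in 7 of 8 both auxin libraries lay below both controls, against 19.6% of all genes tested. Their unadjusted p was under 0.05 in 4, against 10.2% of all genes. DKC1 had 5516.5 and 6079 in control and 4204 and 4018 in auxin (log2 ratio -0.495, SE 0.13, unadjusted p = 0.0041, limma adjusted p = 0.168). NOP58, a C/D core protein, had a log2 ratio of -0.39 and FBL, the C/D methyltransferase fibrillarin, one of -0.34. DKC1 and NOP56 are in both lists. The core gene whose groups overlapped was NOP10, with 1723.5 and 2115 in control and 1693 and 1854 in auxin (log2 ratio -0.11). Leaving out control replicate 1 gave a median of -0.39 for the core genes. Control replicate 2 was the higher control in each core gene, so without it every difference moves towards higher values with auxin. For NOP10, auxin replicate 2 (1854) lay above control replicate 1 (1723.5) and auxin replicate 1 (1693) just below it, so its lower value rests on control replicate 2.

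Factors of snoRNP assembly and the Cajal body were lower in 12 of 12 cases, with a median of -0.26, and in 11 of 12 both auxin libraries lay below both controls, against 19.6% of all genes tested. The gene with the smallest p was NAF1, an H/ACA assembly factor, with 5349 and 6063 in control and 3877 and 3757 in auxin (log2 ratio -0.58, SE 0.14, unadjusted p = 0.00174, limma adjusted p = 0.113). Of these, 4 had an unadjusted p under 0.05, against 10.2% of all genes. COIL, the gene for coilin, the scaffold of Cajal bodies, was at -0.049. It had 6126 and 6972 in control and 6453 and 6184 in auxin, so both auxin libraries lay above control replicate 1. Leaving out control replicate 1 gave a median of -0.20 for the assembly factors.

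Genes of nonsense-mediated decay and the exon junction were at a median of -0.090, with 9 of 14 lower and 0 with an unadjusted p under 0.05, against 10.2% of all genes. Leaving out auxin replicate 1 gave a median of -0.014, leaving out control replicate 2 gave -0.019, and leaving out control replicate 1 gave -0.052. The gene with the smallest p was SMG6, the endonuclease of this decay, at 0.24 (limma adjusted p = 0.546). Regulators of TOP mRNAs had a median of -0.094, with 7 of 10 lower and 3 at an unadjusted p under 0.05, against 10.2% of all genes. Leaving out control replicate 2 gave a median of -0.058, and leaving out control replicate 1 gave -0.14. The smallest p was that of EIF4EBP1, a translational repressor controlled by mTOR, with 5995.5 and 5656 in control and 3917 and 4175 in auxin (log2 ratio -0.53, SE 0.13, limma adjusted p = 0.136). LARP1, which binds TOP mRNAs directly, was at -0.21.

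**Figure D4:**
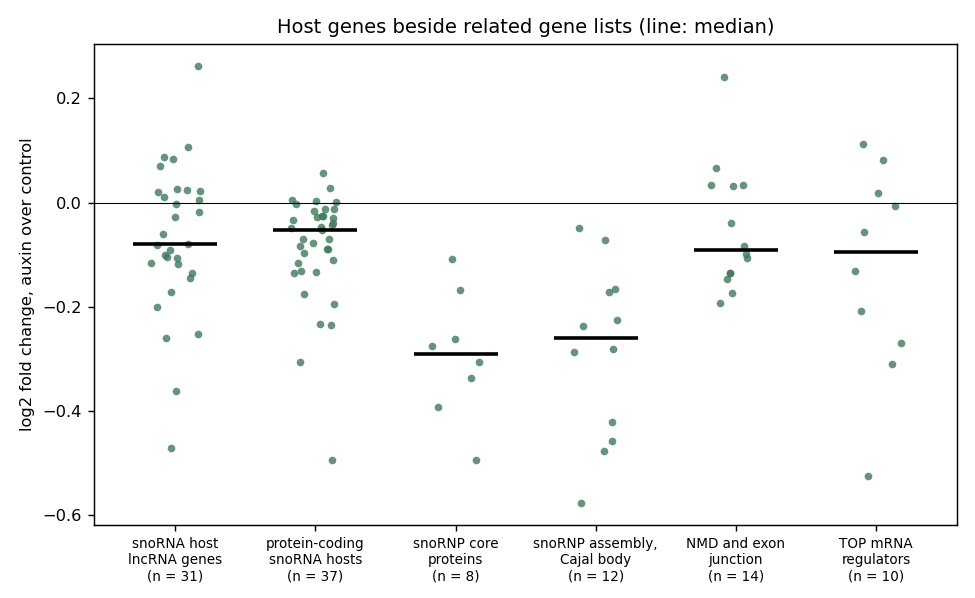
Log2 ratio of auxin over control for the 31 tested snoRNA host lncRNA genes and for the genes of 5 related lists, 1 point per gene, with the median as a line. The medians are -0.080 for the host lncRNA genes, -0.053 for protein-coding hosts, -0.29 for snoRNP core proteins, -0.26 for assembly factors, -0.090 for decay factors and -0.094 for TOP regulators; no gene shown had an adjusted p under 0.05.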

How the data were processed

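The authors deposited 1 table with a signal per gene and library. Per the submitters' processing notes, Trimmomatic 0.39, Bowtie2 2.4.5 and deepTools 3.5.1 were used with builds hg38 and dm6; their roles, the counting, the annotation and the scaling are not given in the sources used here. Low values in each library were whole multiples of 1 step (100% within 0.05 of a step), but only 2 to 8 long genes (10 kb or more) per library stood at exactly 1 step, so values were treated as coverage-like signal and not as reads. Table starts are 0-based, and 1 was added for printing. Columns and groups came from sample titles; a misspelt control column was taken as control replicate 2.

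A gene entered the test with a depth-adjusted value of 10 or more in 2 or more libraries and a summed value of 15 or more. The common scale came from TMM, trimming 30% by log ratio and 5% by level, and log2(value + 1) was fitted over all genes with limma 3.58.1 in R 4.3.3 (lmFit, eBayes with trend; prior degrees of freedom 8.23), with Benjamini-Hochberg adjustment. All log2 ratios are of value + 1, which understates changes of low genes. The procedure was tested on simulated data. Tables and figures used Python 3.11.15, pandas 2.3.3 and matplotlib 3.10.9.

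Genes described with every library's value were the 12 hosts of smallest p, the 4 added by name and the 5 with the most signal per kb; of each list, the gene of smallest p. Others, among them BARD1, COIL, LARP1, NOP58, FBL, SNHG11, SNHG14 and SNHG31, were named after their values were seen. Members and lists were chosen with earlier results of these data known.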

Additional observations from a re-analysis of the deposited data

How the results depend on the processing

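Each alternative scaling, pseudocount or filter, and each library left out, called 0 of the tested hosts, except the replicate block. No label ties equal replicate numbers to one batch, and with 2 pairs the pairing was not settled. The replicate differences correlated between control and auxin with Pearson's r of 0.231 over all genes tested, 0.462 over genes averaging 50 or more, and 0.791 over the 31 tested hosts; these are correlations across genes, which are not independent replicates. With the replicate block, limma called 4273 genes in place of 289 (10.8% of those tested), and 1 host, SNHG10 (adjusted p = 0.0207, against 0.311 or more in every other setting), along with 2 protein-coding hosts, 4 snoRNP core genes, 5 assembly genes and 3 TOP regulators. In that fit the prior degrees of freedom were infinite. The count over all genes was 55 on the deposited scale and 82 at an adjusted p under 0.01, and ranged from 211 to 673 with 1 library left out. The median log2 fold change of the hosts ranged from -0.090 to -0.024 with 1 library left out. It was -0.045 by library size only, where all genes were at 0.044, and -0.074 over the 10 tested hosts that overlap no larger gene.

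Of the 31 tested hosts, 17 kept 1 sign in all settings that tested them, but some of them moved by over 1.5 times. With 1 library left out, SNHG1 ranged from -0.31 to -0.031, SNHG15 from -0.42 to -0.089, EPB41L4A-AS1 from -0.41 to -0.11, SNHG16 from -0.22 to -0.012, SNHG6 from -0.19 to -0.019, SNHG9 from -0.25 to -0.040, SNHG21 from -0.16 to -0.024 and SNHG27 from -0.88 to -0.058, while SNHG10 (-0.38 to -0.34) and DANCR (0.18 to 0.34) moved less. SNHG11 turned to 0.00052 with median-ratio scaling, 0.0029 with no filter and 0.032 by library size only, where SNHG12 (0.0073) and SNHG7 (0.016) turned as well. SNHG32 (-0.0088) and SNHG22 (-0.015) turned on the deposited scale. With 1 library left out, GAS5 ranged from -0.25 to 0.042, SNHG11 from -0.097 to 0.089, SNHG19 from -0.094 to 0.14, SNHG22 from -0.13 to 0.14, SNHG25 from -0.055 to 0.23, SNHG28 from -0.37 to 0.41, SNHG29 from -0.086 to 0.25, SNHG3 from -0.038 to 0.18, SNHG31 from -0.059 to 0.11, SNHG32 from -0.073 to 0.095, SNHG7 from -0.071 to 0.033, SNHG8 from -0.24 to 0.037 and ZFAS1 from -0.024 to 0.068. The cause was not tested. With 2 libraries per group and unknown read depth, small changes were not detectable.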
